A study of Mus musculus with 32 samples.

Results

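The response of FAAH S268D livers to a NASH diet with added arachidonic acid was described in 16 whole-liver mRNA libraries, 8 labelled NASH-AA and 8 labelled NASH, out of 32 libraries in the series. Both groups carried the FAAH S268D substitution, which changes 1 amino acid of fatty acid amide hydrolase, and both received the HFFC diet that the labels call NASH for 28 weeks, with ARA added in NASH-AA. The other 16 libraries came from WT mice on the same diets (8 NASH-AA and 8 NASH) and served as the comparison for genotype. Libraries were taken into the groups by genotype and diet as labelled, and no measured value entered that choice. The age, sex and strain of the mice are not given in the labels. Because the substitution was present in both groups, the contrast describes diet within the mutant and not the substitution itself. The labels do not state that each library is from its own animal. The p-values therefore cover the spread among these libraries and no more, and that spread may be technical.

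Fatty acid amide hydrolase cleaves fatty acid amides such as anandamide and the N-acyl taurines, in which a fatty acid such as arachidonic acid is joined to taurine. Arachidonic acid is an omega-6 polyunsaturated fatty acid made in liver from linoleic acid by elongases and by the desaturases that Fads1 and Fads2 encode. Dietary polyunsaturated fatty acids are known to lower the processing of the transcription factor SREBP-1 in rodent liver, and its relative SREBP-2 is known for driving cholesterol synthesis genes when cell sterols are low. Cytochromes of the CYP2C, CYP2J and CYP4A families oxidise arachidonic acid as well as drugs and steroids.

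The FAAH S268D NASH-AA libraries held between 14743252 and 30885136 counts, and the FAAH S268D NASH libraries between 3851626 and 26662783. The lowest was NASH replicate 1, in which 1 CPM (counts scaled to library size) stands for about 3.85 counts, and the next lowest of its group held 21349502. Albumin took between 5.01% and 6.55% of counts in NASH-AA and between 3.63% and 5.68% in NASH, and all 20 hepatocyte markers were measured. The summed level of those markers was 118000 to 139000 CPM in NASH-AA and 89700 to 147000 CPM in NASH. The pancreatic genes Prss1, Cpa1, Pnlip and Try4 and the adipocyte gene Lep had no count in any FAAH S268D library. The 1 pancreatic gene tested ran from 7.87 to 20.8 CPM in NASH-AA and from 6.03 to 22.5 CPM in NASH. The 4 adipocyte genes tested summed to 2360 to 5230 CPM in NASH-AA and 1770 to 4240 CPM in NASH. Of these 4, 2 were higher and 1 lower at an unadjusted p under 0.05, and 0 passed after adjustment (limma-voom). Some libraries did not sit with their labelled diet. Against the mean log2 profile of the other libraries of each diet, 7 of 8 NASH-AA libraries correlated best with NASH-AA, the exception being replicate 3. NASH replicates 2, 3 and 4 also correlated best with NASH-AA. For replicate 4 the difference was slight, with r = 0.982 to NASH-AA and r = 0.981 to NASH. For replicate 2 the values were r = 0.982 and r = 0.976, and for replicate 3 r = 0.983 and r = 0.974. For NASH-AA replicate 3 they were r = 0.981 to NASH-AA and r = 0.985 to NASH. The NASH mean included NASH replicate 1, the library of lowest depth, whose own values were r = 0.9435 to NASH-AA and r = 0.9448 to NASH. These correlations are across genes and describe the libraries only. The labels were kept as given, and whether the 2 libraries numbered replicate 3 were exchanged was not tested. NASH replicate 3 moved the count of changed genes most, so some results are also given without it. It was picked for that effect on the count. Adjusted p-values without it are therefore selected on the result, can be too small, and describe that fit only.

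Of 14903 genes tested with limma-voom, 14 passed a Benjamini-Hochberg adjusted p of 0.05 between NASH-AA and NASH in FAAH S268D livers (0.0939%), 4 higher (0.0268%) and 10 lower (0.0671%). The median log2 fold change over all genes was 0.0045, with 51.2% of genes positive and 48.8% negative. At an unadjusted p under 0.05 there were 1843 genes (12.4%), 936 higher (6.28%) and 907 lower (6.09%). The genes that fell were Apoa4, Apoa1, Mvk, St3gal3, Pglyrp2, As3mt, Tnfaip8l1, Mup20, Golt1a and Gm15343. The genes that rose were Gypc, A330023F24Rik, Gm11844 and Gm35696. The levels of all 16 libraries did not overlap between the diets for 9 genes of 14903 (0.0604%), 3 higher (0.0201%) and 6 lower (0.0403%). Among the 14 genes this held for Tnfaip8l1, Pglyrp2 and Gm15343.

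The 2 apolipoprotein genes that fell lie in the same cluster, with Apoc3 between them. Apoa4 encodes a protein of chylomicrons and other triglyceride-rich particles and lies on GRCm38 chromosome 9, plus strand, from 46240696 to 46243459. Its level ran from 301 to 780 CPM with a median of 507 in NASH-AA libraries, and from 473 to 5080 CPM with a median of 3360 in NASH libraries. Only NASH replicate 3, at 473 CPM, lay within the NASH-AA range, and the other 7 NASH libraries began at 947 CPM. Apoa4 was 4.93-fold lower (log2 fold change -2.30 ± 0.36 SE, adjusted p = 0.00547, n = 8 each, limma-voom). Of its exon bases, 69.8% are also covered on the opposite strand by Gm10680 and Gm47528, whose own values were -2.36 ± 0.55 and -2.16 ± 0.49 (adjusted p = 0.068 for each). Without a stated strand of counting, reads of these genes and of Apoa4 cannot be told apart. Apoa1, the main protein of high-density lipoprotein, lies on the same strand from 46228580 to 46230466. It ran from 3380 to 5090 CPM with a median of 4380 in NASH-AA, and from 4550 to 7160 CPM with a median of 5570 in NASH. Those ranges overlapped in part, with 5 of 8 NASH-AA libraries below every NASH library. Its log2 fold change was -0.48 ± 0.09 (adjusted p = 0.0279). Apoc3, which encodes an inhibitor of lipoprotein lipase, gave -0.10 ± 0.13 (adjusted p = 0.8).

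Several of the other genes that fell changed by less but with less spread. St3gal3, which encodes a sialyltransferase (chromosome 4, 117932154 to 118134914, minus strand), ran from 57.3 to 74.4 CPM in NASH-AA with a median of 65.3, and from 73.0 to 96.4 CPM in NASH with a median of 88.3. In 7 of 8 NASH-AA libraries it was below every NASH library (-0.42 ± 0.07, adjusted p = 0.00547). Pglyrp2 encodes a secreted liver amidase that cleaves bacterial peptidoglycan (chromosome 17, 32412459 to 32424167, minus strand). It ran from 82.5 to 91.9 CPM in NASH-AA with a median of 88.5, and from 99.6 to 137 CPM in NASH with a median of 120. The diets did not overlap, and the log2 fold change was -0.44 ± 0.07 (adjusted p = 0.00599). As3mt, the methyltransferase of inorganic arsenic (chromosome 19, 46707458 to 46741099, plus strand), ran from 15.2 to 26.3 CPM in NASH-AA with a median of 19.3. In NASH it ran from 18.9 to 44.8 CPM with a median of 35.4. NASH replicate 3 gave the 18.9 and the other 7 NASH libraries began at 33.3, above every NASH-AA library (-0.79 ± 0.14, adjusted p = 0.0168). Tnfaip8l1, of the TNFAIP8 family, ran from 10.3 to 13.9 CPM in NASH-AA and from 15.8 to 22.8 CPM in NASH, with no overlap (-0.61 ± 0.12, adjusted p = 0.0309). Here NASH replicate 3 held the highest value of its group.

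Mup20, a major urinary protein gene, had a log2 fold change of -0.98 ± 0.20 (adjusted p = 0.0341), with 1620 to 3400 CPM in NASH-AA and 2760 to 7320 CPM in NASH. It shares 64.5% of its 31-base words with other genes, and reads could have been divided among copies. Of the 20 major urinary protein genes tested, 15 were positive and 5 negative, and Mup20 alone passed. The list median of 0.24 turned to -0.15 without NASH replicate 5. It was -0.93 within libraries 1 to 16 and 1.66 within libraries 17 to 32. Golt1a, of vesicle transport, fell by 0.48 (SE 0.10, adjusted p = 0.0443), with 50.8% of its exon bases shared on the same strand with Gm28040 and Kiss1. Gm15343 is annotated as antisense to Spatc1l and fell by 0.59 (SE 0.12, adjusted p = 0.0339), at 2.0 to 3.60 CPM in NASH-AA and 3.66 to 4.62 CPM in NASH.

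Among the genes that rose, Gypc encodes glycophorin C of the red cell membrane. It ran from 11.4 to 18.9 CPM in NASH-AA with a median of 14.5, and from 6.70 to 11.5 CPM in NASH with a median of 9.28. In 7 of 8 NASH-AA libraries it was above every NASH library (0.64 ± 0.12, adjusted p = 0.0244). The erythroid marker list had 6 of 6 members positive and 0 past the threshold, 1 of them at an unadjusted p under 0.05, with a summed level of 374 to 748 CPM in NASH-AA and 349 to 677 CPM in NASH, and its part in the Gypc result was not tested. The other 3 were long non-coding transcripts. A330023F24Rik (chromosome 1, 194976375 to 195037904, plus strand), whose exons overlap the microRNA gene Mir29c on the same strand and Cd46 on the other, ran from 3.88 to 5.55 CPM in NASH-AA and from 1.59 to 4.27 CPM in NASH (0.70 ± 0.14, adjusted p = 0.0279). Gm11844, annotated as antisense to Necab1, was at 0.635 to 1.11 CPM in NASH-AA and 0.277 to 0.704 CPM in NASH (0.90 ± 0.17, adjusted p = 0.0271). Gm35696, an intergenic transcript on chromosome 10 whose closest coding gene is Tbk1, was at 2.90 to 7.97 CPM in NASH-AA and 1.23 to 5.87 CPM in NASH (1.34 ± 0.23, adjusted p = 0.00599). The highest NASH value of these 3 genes came from replicate 3 each time.

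**Figure D1:**
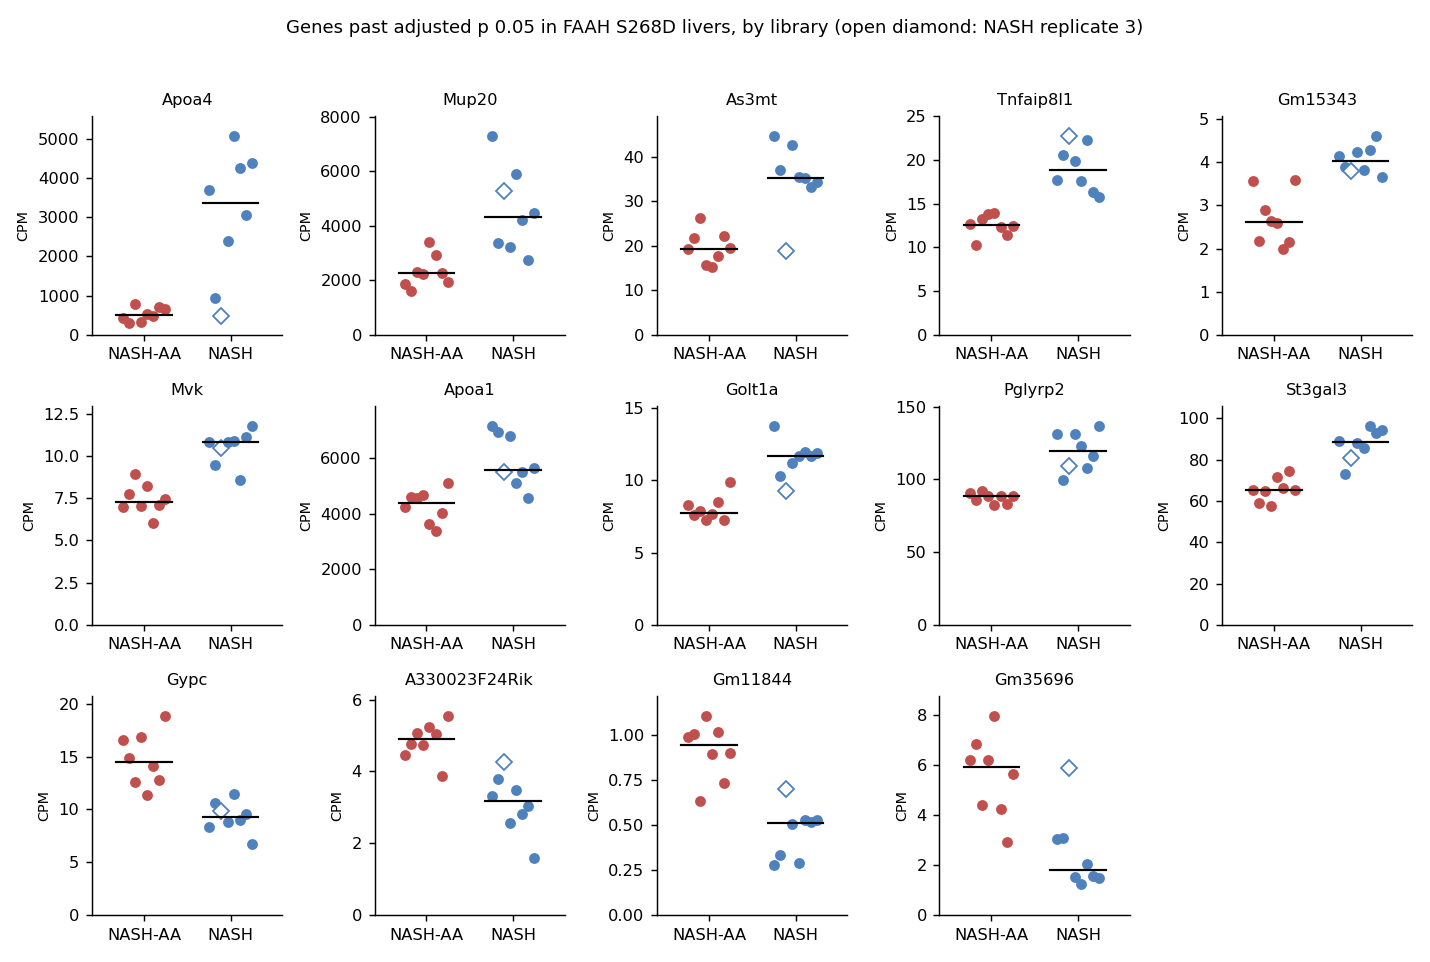
CPM of the 14 genes past the threshold in each FAAH S268D library, NASH-AA left and NASH right, on axes that start at 0; points are libraries, bars are medians and the open diamond is NASH replicate 3. For Apoa4 that library is at 473 CPM, inside the NASH-AA range of 301 to 780, while for Tnfaip8l1 it is the highest of its group at 22.8.

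The count of 14 depended on single libraries. It was 362 (2.43%) without NASH replicate 3, with 148 higher (0.993%) and 214 lower (1.44%), and all 14 genes were among them. It was 50 without NASH-AA replicate 3 and 54 without NASH replicate 2. It was 6 without NASH-AA replicate 1, 7 without NASH-AA replicate 6, and 8 without NASH-AA replicate 2, 7 or 8. It was 9 without NASH replicate 5 and 8 without NASH replicate 6. Without the shallow NASH replicate 1 it was 11. Limma-trend gave 42. Among members of the gene lists described here, limma-trend called Fgf21, Ccl9, Krt18, Tff3 and Id3, which limma-voom did not. Apoa4, St3gal3, Pglyrp2, As3mt and Gm35696 passed with any 1 of the 32 libraries left out, and the other 9 lost the call in 4 to 17 of those fits. The count of 362 itself ran from 119, without NASH replicate 8 as well, to 816, without NASH replicate 2 as well. Libraries numbered 1 to 16 alone gave 0 genes in limma-voom and 0 in limma-trend, with 480 at an unadjusted p under 0.05, and those numbered 17 to 32 alone gave 372, 123 higher and 249 lower. The lower range holds NASH-AA replicates 1 to 4 and NASH replicates 1 to 5 of FAAH S268D. Among these are the shallow NASH replicate 1 and every library that correlated best with the other diet (NASH-AA replicate 3 and NASH replicates 2, 3 and 4). For NASH replicate 4 that rested on r = 0.982 against 0.981. Whether these libraries bear on the difference between the ranges was not tested. The 16 FAAH S268D libraries fitted without the WT libraries gave 4, all lower, with 751 higher and 788 lower at an unadjusted p under 0.05.

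**Figure D2:**
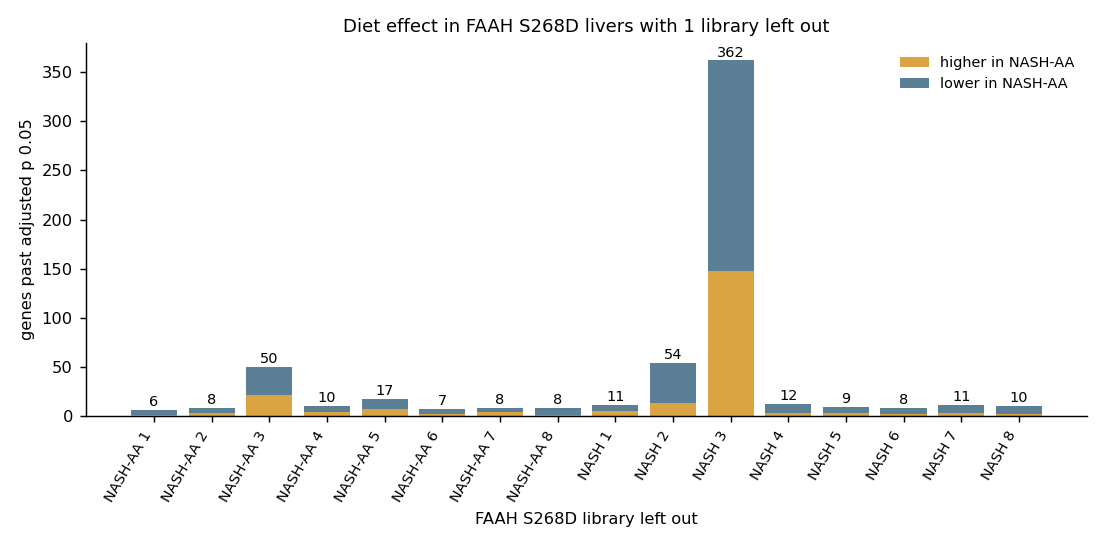
Number of genes past adjusted p 0.05 between NASH-AA and NASH in FAAH S268D livers when the library named on the horizontal axis is left out, split into higher and lower. Leaving out NASH replicate 3 gives 362 genes, and the other 15 bars lie between 6 and 54.

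Genes of cholesterol synthesis and uptake were mostly lower in NASH-AA, 1 of them past the threshold. Of 26 tested, 24 were negative, with a median log2 fold change of -0.48 beside 0.0045 over all genes. Mvk, the kinase that phosphorylates mevalonate, passed (1 lower, 0 higher), and 19 were lower and 0 higher at an unadjusted p under 0.05. Over all genes 6.09% were lower and 6.28% higher at that level. Without NASH replicate 3, 1.44% of all genes passed as lower and 0.993% as higher. The counts of every list below are to be read beside these shares. Without NASH replicate 3 the median was -0.62 and 13 passed, all lower. The early steps of the pathway are shown by Mvk (chromosome 5, 114444269 to 114460591, plus strand). It ran from 6.05 to 8.93 CPM in NASH-AA with a median of 7.26, and from 8.55 to 11.8 CPM in NASH with a median of 10.8. In 7 of 8 NASH-AA libraries it lay below every NASH library, and NASH replicate 3, at 10.5 CPM, lay with its group (-0.48 ± 0.10, adjusted p = 0.0443). The squalene epoxidase Sqle, a rate-limiting enzyme of the sterol part of the pathway, ran from 0 to 1.13 CPM in NASH-AA and from 0.235 to 6.18 CPM in NASH. The lowest NASH value was that of replicate 3, and the other 7 began at 1.28 CPM, above every NASH-AA library (-2.41 ± 0.76, adjusted p = 0.18; -2.79 and adjusted p = 0.025 without replicate 3).

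Dhcr7 and Acat2, of the late and the first steps of the pathway, were also negative. Ebp and Ggps1, named here after their values were seen, were the 2 positive members of the list. Dhcr7, which makes cholesterol from 7-dehydrocholesterol, ran from 22.4 to 46.3 CPM in NASH-AA with a median of 26, and from 21.8 to 71.0 CPM in NASH with a median of 53.5 (-0.77 ± 0.23, adjusted p = 0.159). Acat2, which condenses acetyl-CoA at the head of the pathway, gave -0.48 ± 0.15 (adjusted p = 0.176), with 43.7% of its 31-base words shared with Acat3. Dhcr7 and Acat2 passed without NASH replicate 3, which held the lowest NASH value for both. The library score, the mean over the list of log2 CPM minus each gene's mean over 32 libraries, ran from -0.77 to 0.27 in NASH-AA and from -0.03 to 0.81 in the NASH libraries other than replicate 3, which scored -0.85. NASH-AA replicate 3 scored the 0.27, and the other 7 NASH-AA libraries lay below every NASH library but replicate 3. The median was -0.42 within libraries 1 to 16 and -0.71 within libraries 17 to 32.

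**Figure D3:**
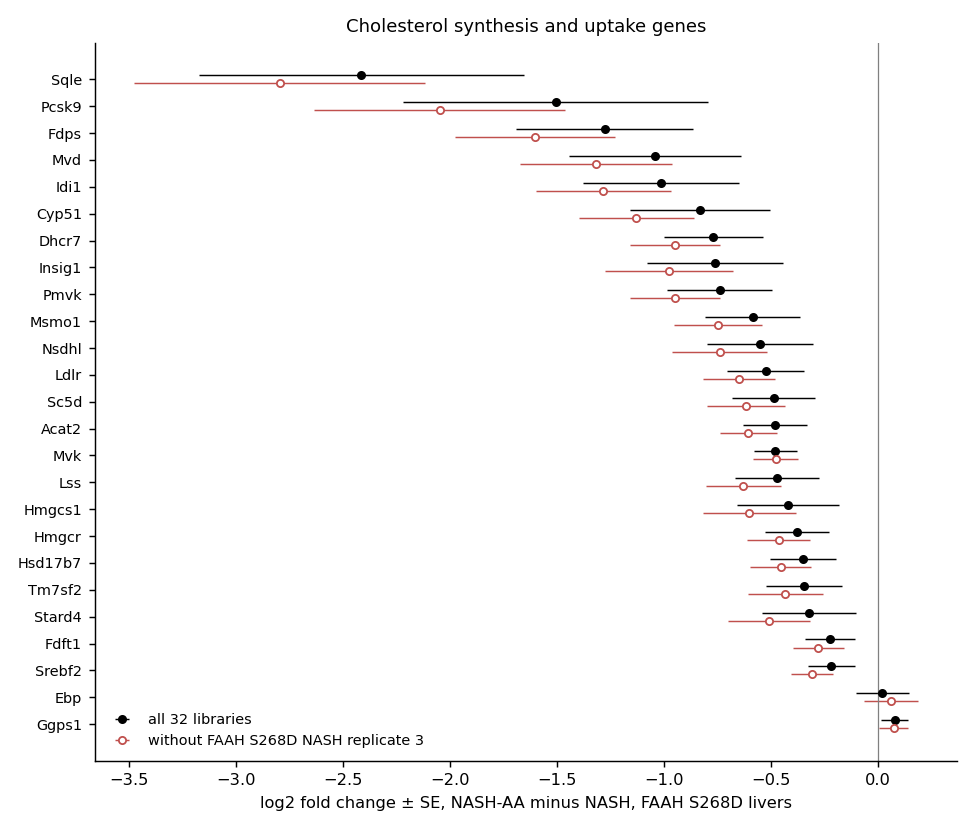
Log2 fold change with its SE of 25 of the 26 cholesterol synthesis and uptake genes, NASH-AA minus NASH in FAAH S268D livers, over all 32 libraries (filled) and without NASH replicate 3 (open). All but Ebp and Ggps1, named here after their values were seen, lie below 0, and the median of all 26, -0.48, becomes -0.62 when that library is left out.

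Since most of these genes had negative values, the promoters of Mvk, Hmgcs1, Idi1 and Fads2, chosen after their values were seen, are shown from 250 bases before to 50 after the start (RefSeq, GRCm38.p6), each printed 5′ to 3′ on the strand of the gene. Capitals mark the letters TCACNCCAC, a form of the sterol regulatory element, and CCAAT, the box bound by NF-Y, each searched on both strands, so that ATTGG is CCAAT on the other strand.
Mvk, chr5:114444019-114444318, plus strand: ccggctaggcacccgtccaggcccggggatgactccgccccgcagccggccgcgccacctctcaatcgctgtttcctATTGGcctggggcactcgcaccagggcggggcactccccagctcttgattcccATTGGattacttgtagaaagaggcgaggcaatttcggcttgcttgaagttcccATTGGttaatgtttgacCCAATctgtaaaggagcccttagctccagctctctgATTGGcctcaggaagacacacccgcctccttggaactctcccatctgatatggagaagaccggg
Hmgcs1, chr13:119690101-119690400, plus strand: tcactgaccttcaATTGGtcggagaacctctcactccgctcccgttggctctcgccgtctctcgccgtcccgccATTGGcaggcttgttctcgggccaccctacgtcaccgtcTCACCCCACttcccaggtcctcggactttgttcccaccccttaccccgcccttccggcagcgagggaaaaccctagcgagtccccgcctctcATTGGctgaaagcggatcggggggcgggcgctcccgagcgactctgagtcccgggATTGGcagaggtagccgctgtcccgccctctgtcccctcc
Idi1, chr13:8885356-8885655, plus strand: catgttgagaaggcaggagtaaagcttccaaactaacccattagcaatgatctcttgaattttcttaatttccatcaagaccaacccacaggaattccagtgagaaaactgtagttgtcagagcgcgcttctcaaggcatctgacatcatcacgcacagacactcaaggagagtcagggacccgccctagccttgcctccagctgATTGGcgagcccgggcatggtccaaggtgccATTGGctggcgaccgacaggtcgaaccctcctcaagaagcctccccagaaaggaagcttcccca
Fads2, chr19:10101454-10101753, minus strand: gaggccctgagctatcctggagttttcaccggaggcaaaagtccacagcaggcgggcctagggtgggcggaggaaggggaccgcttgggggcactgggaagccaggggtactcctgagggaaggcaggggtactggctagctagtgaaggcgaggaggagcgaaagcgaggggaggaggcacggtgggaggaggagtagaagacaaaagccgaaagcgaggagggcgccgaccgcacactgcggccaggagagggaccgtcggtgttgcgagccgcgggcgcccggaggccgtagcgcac
The Mvk window holds 5 CCAAT boxes, the Hmgcs1 window 4 boxes and 1 TCACNCCAC, the Idi1 window 2 boxes and the Fads2 window neither. RefSeq windows were matched for 18 of the 26 genes, 21 windows in all, of which 17 (81%) held a CCAAT box and 1 (4.76%) held TCACNCCAC. Over all 32851 windows those shares were 37.4% and 1.24%. TCACNCCAC was in 5% of the windows of fatty acid synthesis genes, in 5% of those of polyunsaturated fatty acid genes and in 7.89% (3 of 38) of those of xenobiotic cytochromes, whose values were mostly positive. The CCAAT box was in 60%, 50% and 44.7% of them. In the windows shown no match of one motif overlaps a match of the other, and a match describes the window only.

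Genes that make and remodel polyunsaturated fatty acids also had mostly negative values. Of 18 tested 17 were negative, with a median of -0.32. None (0) passed over all 32 libraries, 11 were lower and 0 higher at an unadjusted p under 0.05, and 8 passed as lower without NASH replicate 3. Fads2, the delta-6 desaturase gene that starts the path to arachidonic acid, ran from 303 to 844 CPM in NASH-AA with a median of 488. In NASH it ran from 220 to 1700 CPM with a median of 1350. Replicate 3 gave the 220, and the other 7 NASH libraries began at 814 CPM, against a highest NASH-AA value of 844 (-1.14 ± 0.30, adjusted p = 0.112; -1.45 and adjusted p = 0.000643 without it). Fads1, the delta-5 desaturase gene that makes arachidonic acid itself, ran from 70.2 to 372 CPM in NASH-AA with a median of 187, and from 57.7 to 693 CPM in NASH with a median of 612. Its log2 fold change was -1.29 ± 0.39 (adjusted p = 0.159; -1.70 and adjusted p = 0.00233 without replicate 3, which gave the 57.7). Elovl2, which elongates polyunsaturated chains, gave -0.56 ± 0.16 (adjusted p = 0.136), and Agpat3, an acyltransferase of phospholipid and triglyceride synthesis, gave -0.20 ± 0.06 (adjusted p = 0.165). Both passed without replicate 3. The list median was -0.21 within libraries 1 to 16 and -0.61 within libraries 17 to 32.

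For fatty acid synthesis, 16 of 18 genes were negative with a median of -0.37, or -0.56 without NASH replicate 3. None (0) passed, 4 were lower and 1 higher at an unadjusted p under 0.05, and 1 passed without NASH replicate 3, Acacb. Acacb, the acetyl-CoA carboxylase whose product restrains mitochondrial import of fatty acids, ran from 16.3 to 116 CPM in NASH-AA with a median of 62.4, and from 12.4 to 300 CPM in NASH with a median of 189. Its value was -1.27 ± 0.51 (adjusted p = 0.297; -1.72 and adjusted p = 0.0258 without replicate 3). Fasn, the fatty acid synthase, ran from 174 to 1940 CPM in NASH-AA with a median of 465, and from 136 to 2570 CPM in NASH with a median of 1440 (-1.31 ± 0.53, adjusted p = 0.304). NASH-AA replicate 3 gave the 1940 and NASH replicate 3 the 136. Slc25a1, the mitochondrial citrate carrier, gave -0.27 ± 0.12, while Mlxipl, the gene of the carbohydrate-responsive factor ChREBP, gave 0.28 ± 0.11 (adjusted p = 0.33 and 0.299).

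Genes of lipid droplets were mostly negative too. Of 19 tested 15 were negative (median -0.22), 0 passed, 10 were lower and 0 higher at an unadjusted p under 0.05, and 6 passed as lower without NASH replicate 3. Plin2, a droplet coat protein, ran from 371 to 584 CPM in NASH-AA with a median of 554, and from 339 to 1300 CPM in NASH with a median of 926. Apart from replicate 3, at 339, every NASH library lay above every NASH-AA library, beginning at 659 (-0.68 ± 0.19, adjusted p = 0.13; -0.86 and adjusted p = 0.00277 without replicate 3). Cidec, which fuses droplets, ran from 5.64 to 56.0 CPM in NASH-AA, and from 65.7 to 195 CPM in the NASH libraries other than replicate 3, which was at 2.30. Its value was -1.77 ± 0.61 (adjusted p = 0.226; -2.53 and adjusted p = 0.000355 without replicate 3). Cidea, its relative, ran from 0.179 to 16 CPM in NASH-AA and from 0.329 to 47.0 CPM in NASH (-2.89 ± 1.16, adjusted p = 0.298). Mgll, the monoacylglycerol lipase that also cleaves the endocannabinoid 2-arachidonoylglycerol, gave -0.37 ± 0.11 (adjusted p = 0.163). Hsd17b13, a droplet-bound enzyme of hepatocytes, gave -0.36 ± 0.11, and Hilpda, an inhibitor of triglyceride lipase, gave -0.53 ± 0.17 (adjusted p = 0.169 and 0.175).

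In triglyceride synthesis the members differed. Dgat2, which adds the last acyl chain, ran from 498 to 706 CPM in NASH-AA with a median of 660, and from 406 to 641 CPM in NASH with a median of 498. In 7 of 8 NASH-AA libraries it lay above every NASH library (0.36 ± 0.09, adjusted p = 0.088; 0.37 and adjusted p = 0.0266 without NASH replicate 3). Gpam, which adds the first chain, gave -0.61 ± 0.29 (adjusted p = 0.383). Of the 15 genes 6 were positive, 9 negative and 0 passed, 1 was higher and 2 lower at an unadjusted p under 0.05, and the median was -0.06, or -0.17 without NASH replicate 3. Targets of PPARalpha and genes of fatty acid oxidation had a median of -0.05, with 9 of 27 positive, 18 negative, 0 past the threshold, and 0 higher and 5 lower at an unadjusted p under 0.05. Fgf21, a liver hormone that PPARalpha induces in fasting, ran from 0.529 to 2.65 CPM in NASH-AA with a median of 1.5, and from 1.27 to 8.80 CPM in NASH with a median of 4.87. NASH replicate 3 gave the 1.27, and the other 7 began at 3.98, above every NASH-AA library (-1.82 ± 0.49, adjusted p = 0.118; -2.10 and adjusted p = 0.00783 without replicate 3), and it passed in limma-trend. Crat, the carnitine acetyltransferase, gave -0.48 ± 0.20, Hadhb, of the trifunctional protein, gave -0.17 ± 0.07, and Fabp1, the liver fatty acid-binding protein, gave -0.35 ± 0.15 (adjusted p = 0.314, 0.324 and 0.345).

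Of 25 apolipoprotein and lipoprotein assembly genes, Apoa4 and Apoa1 passed (2 lower, 0 higher), 10 were positive and 15 negative, and the median was -0.02. Apoc2, the cofactor of lipoprotein lipase, ran from 203 to 367 CPM in NASH-AA with a median of 302, and from 249 to 702 CPM in NASH with a median of 517. It gave -0.65 ± 0.16 (adjusted p = 0.0916; 0.00534 without NASH replicate 3), with 78.8% of its 31-base words shared with the overlapping gene Gm44805. Apoa5, which promotes triglyceride clearance, gave -0.35 ± 0.12 (adjusted p = 0.208). Of 11 genes of cholesterol efflux and LXR targets 6 were positive, with a median of 0.02, 0 past the threshold and 2 lower at an unadjusted p under 0.05. Pltp, the phospholipid transfer protein, gave -0.50 ± 0.15 (adjusted p = 0.152).

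**Figure D4:**
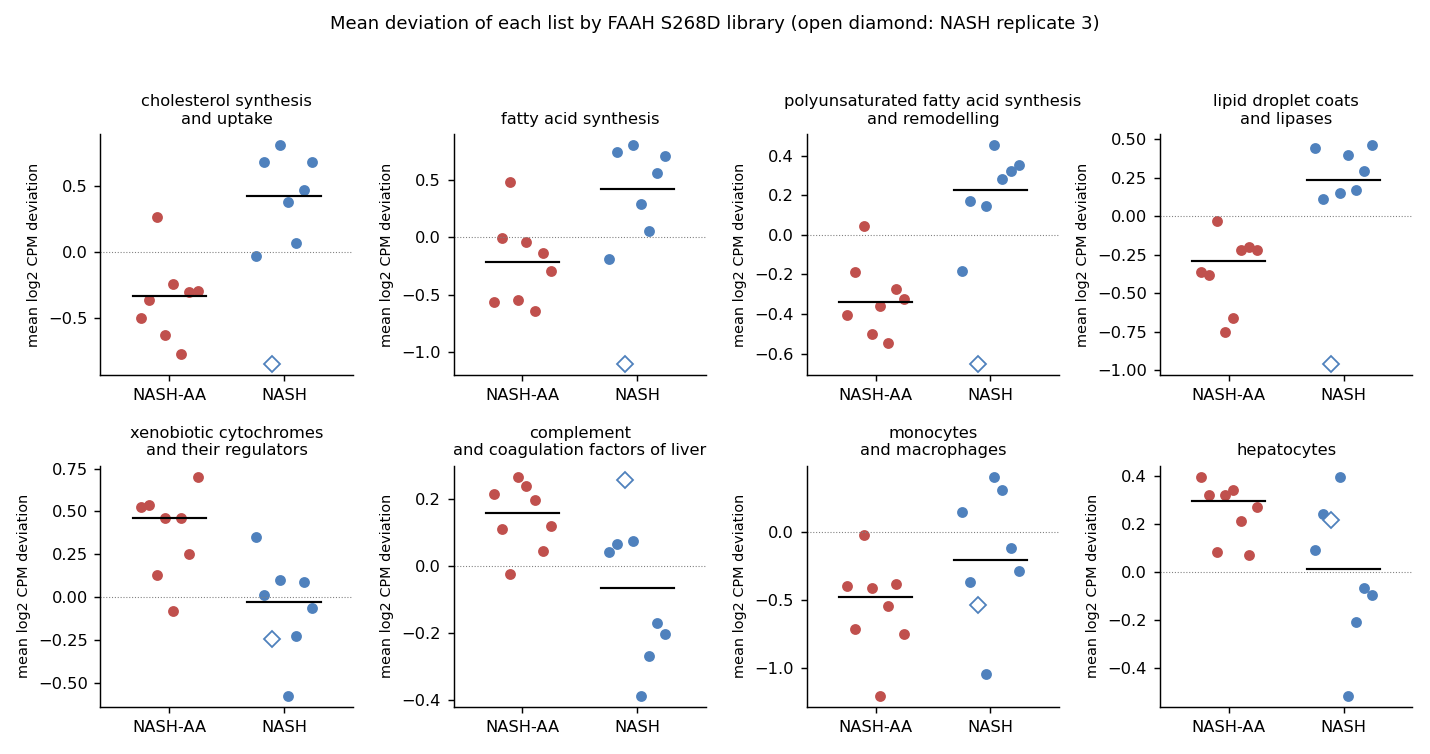
Library scores (mean over a list of log2 CPM minus each gene's mean over 32 libraries) for 8 lists, NASH-AA left and NASH right; points are FAAH S268D libraries, bars are medians and the open diamond is NASH replicate 3. On the 4 lipid lists in the upper row that library is the lowest of all 16, at -0.96 for lipid droplets against 0.11 to 0.46 in the other NASH libraries.

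Xenobiotic cytochromes had mostly positive values. Of 39 genes 36 were positive, with a median of 0.33. None (0) passed, 16 were higher and 1 lower at an unadjusted p under 0.05, and 6 passed as higher without NASH replicate 3. Cyp2c50 ran from 524 to 954 CPM in NASH-AA with a median of 756, and from 170 to 689 CPM in NASH with a median of 378 (1.01 ± 0.26, adjusted p = 0.107). Cyp2c37 ran from 231 to 475 CPM in NASH-AA with a median of 341, and from 60.4 to 267 CPM in NASH with a median of 141 (1.35 ± 0.35, adjusted p = 0.112). For both, NASH replicate 3 was the highest library of its group. The mouse enzymes of this family include epoxygenases of arachidonic acid. Cyp2c29 gave 1.04 ± 0.29 (adjusted p = 0.135), and all 3 passed without replicate 3, at 1.14, 1.49 and 1.08. They lie together on chromosome 19, Cyp2c29 from 39269405 to 39330713, Cyp2c37 from 39992424 to 40012243 and Cyp2c50 from 40089688 to 40113950. Cyp2c37 shares 47.4% of its 31-base words with other genes, and Cyp2c50 shares 29.2%. For Cyp2a5 and Cyp2b13, given next, those shares are 54.6% and 40.8%. Cyp2a5, a coumarin hydroxylase, ran from 1360 to 2830 CPM in NASH-AA with a median of 2220, and from 904 to 1870 CPM in NASH with a median of 1100 (0.87 ± 0.21, adjusted p = 0.0841; 0.96 and adjusted p = 0.0133 without replicate 3). Cyp2b13, a cytochrome known for female-predominant expression, ran from 2.19 to 52.7 CPM in NASH-AA with a median of 34.1, and from 1.99 to 8.58 CPM in NASH with a median of 3.83. In 7 of 8 NASH-AA libraries it was above every NASH library, and the 1 low NASH-AA library gave it a wide spread (2.60 ± 0.68, adjusted p = 0.115). The list median was 0.39 within libraries 1 to 16 and 0.37 within libraries 17 to 32.

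Genes of the pericentral lobule, where many cytochromes are expressed, had 12 of 15 positive (median 0.22), 0 past the threshold and 6 higher and 0 lower at an unadjusted p under 0.05. Slc1a2, a glutamate transporter, gave 0.52 ± 0.15 (adjusted p = 0.143), Oat, the ornithine aminotransferase, gave 0.64 ± 0.23 (adjusted p = 0.255), and Cyp1a2 gave 0.58 ± 0.22 (adjusted p = 0.27). Slc1a2 and Cyp1a2 passed without NASH replicate 3, and NASH replicate 3 was the highest library of all 16 for Cyp1a2, at 726 CPM. In the growth hormone and IGF1 axis, Prlr, the prolactin receptor, ran from 65.2 to 110 CPM in NASH-AA with a median of 92.9, and from 25.3 to 81.2 CPM in NASH with a median of 45.4 (0.98 ± 0.26, adjusted p = 0.115). Ghr, the growth hormone receptor, gave 0.28 ± 0.08 (adjusted p = 0.138), and Serpina12, the serpin vaspin, gave -0.82 ± 0.22 (adjusted p = 0.118). That list had 11 of 15 positive, 0 past the threshold, 4 higher and 1 lower at an unadjusted p under 0.05, and a median of 0.13.

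Bile acid genes had 15 of 21 positive, 0 past the threshold, 4 higher and 2 lower at an unadjusted p under 0.05, and a median of 0.09, which ran from 0.049 without NASH-AA replicate 5 to 0.14 without NASH-AA replicate 3. Without NASH replicate 3, 1 passed as higher and 1 as lower. Cyp7a1, the rate-limiting enzyme of bile acid synthesis, ran from 49.3 to 184 CPM in NASH-AA with a median of 172, and from 22.3 to 143 CPM in NASH with a median of 84.8 (0.96 ± 0.39, adjusted p = 0.299). Of the 8 NASH libraries 6 lay inside the NASH-AA range. Slco1b2, an uptake transporter, gave 0.31 ± 0.10 (adjusted p = 0.171), and Cyp2c70, which makes muricholic acids in mouse, gave 0.55 ± 0.23 (adjusted p = 0.303). Slc51b, an efflux transporter subunit, was under 1.4 CPM in every FAAH S268D library and gave -1.80 ± 0.56 (adjusted p = 0.176).

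Liver-made complement and coagulation factors were positive in 27 of 29 genes, with a median of 0.14. None (0) passed, 15 were higher and 1 lower at an unadjusted p under 0.05, and 8 passed as higher without NASH replicate 3. Over all genes those shares were 6.28%, 6.09% and 0.993%. C3, the central complement protein, ran from 7170 to 8780 CPM in NASH-AA with a median of 7790, and from 3930 to 7620 CPM in NASH with a median of 6050 (0.51 ± 0.14, adjusted p = 0.138). Cfb, of the alternative pathway, ran from 1060 to 1300 CPM in NASH-AA and from 899 to 1060 CPM in NASH, with all 8 NASH-AA libraries above every NASH library (0.24 ± 0.06, adjusted p = 0.127). It shares 75.5% of its 31-base words with the overlapping gene Gm20547. Cfi, a protease that inactivates C3b, gave 0.28 ± 0.07 (adjusted p = 0.107). For C3 and Cfi, NASH replicate 3 was the highest NASH library, and C3, Cfb and Cfi passed without it. Acute-phase genes had 17 of 24 positive (median 0.18, or 0.076 without NASH replicate 2), 0 past the threshold and 6 higher and 0 lower at an unadjusted p under 0.05. Itih4 ran from 2390 to 2680 CPM in NASH-AA, and from 1290 to 1950 CPM in the NASH libraries other than replicate 3, which was at 2970 (0.55 ± 0.17, adjusted p = 0.163; 0.65 and adjusted p = 0.02 without it). Saa3, Serpina3m and Saa4 gave 1.02 ± 0.35, 0.44 ± 0.15 and 0.64 ± 0.24 (adjusted p = 0.223, 0.225 and 0.274).

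In the lists closest to arachidonic acid signalling and to the mutated enzyme, 0 genes passed over all 32 libraries. Of 22 genes of eicosanoid enzymes and receptors 8 were positive, 14 negative and 0 past the threshold, 1 of them higher at an unadjusted p under 0.05, and the median was -0.04. That 1 gene did not exceed the share of all genes higher at that level (6.28%). Faah itself ran from 166 to 193 CPM in NASH-AA with a median of 178, and from 163 to 227 CPM in NASH with a median of 185 (-0.04 ± 0.06, adjusted p = 0.835). A substitution need not alter its transcript, so this does not check the labels. Of 13 genes of N-acyl amide and endocannabinoid metabolism 7 were positive, 6 negative and 0 past the threshold, with 1 higher and 3 lower at an unadjusted p under 0.05. Without NASH replicate 3, 1 of these genes passed as lower. Daglb, which makes 2-arachidonoylglycerol, gave -0.14 ± 0.06, Abhd4, a lipase on the path to N-acyl ethanolamines, gave -0.18 ± 0.08, and Pm20d1, a synthase of N-acyl amino acids, gave 0.22 ± 0.09 (adjusted p = 0.289, 0.324 and 0.299). Genes of taurine synthesis, transport and conjugation had a median of 0.15, with 8 of 10 positive, 0 past the threshold and 1 higher at an unadjusted p under 0.05. Slc27a5, which activates bile acids for conjugation, gave 0.23 ± 0.11, Slc6a6, the taurine transporter, gave 0.21 ± 0.11, and Csad, of taurine synthesis, gave -0.27 ± 0.17 (adjusted p = 0.369, 0.454 and 0.521).

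Markers of monocytes and macrophages, lipid-associated macrophages, dendritic cells and ductular cells were mostly negative, without passing over all 32 libraries. Those of resident Kupffer cells and of other immune cells were mixed. Monocyte and macrophage markers were negative in 19 of 20 (median -0.33, 0 past the threshold, 2 lower at an unadjusted p under 0.05), with a summed level of 359 to 676 CPM in NASH-AA and 374 to 845 CPM in NASH. Lipid-associated macrophage markers were negative in 14 of 14 (median -0.43, 0 past the threshold, 4 lower at an unadjusted p under 0.05). Without NASH replicate 3 their median was -0.59 and 2 passed as lower. The median of that list was -0.66 without NASH replicate 2, and -0.19, -0.23 and -0.23 without NASH replicate 5, NASH replicate 6 and NASH-AA replicate 5. Fabp5, a fatty acid-binding protein, ran from 3.33 to 5.43 CPM in NASH-AA and from 4.04 to 17.1 CPM in NASH (-0.96 ± 0.31, adjusted p = 0.187), while Spp1, osteopontin, gave -0.83 ± 0.35 and Cd9, a tetraspanin, gave -0.49 ± 0.20 (adjusted p = 0.327 and 0.314). Resident Kupffer cell markers were positive in 6 of 12 (median -0.02), T and NK cell markers in 10 of 13 (median 0.09), B and plasma cell markers in 5 of 12 (median -0.03), dendritic cell markers in 2 of 17 (median -0.16) and neutrophil markers in 1 of 3 (median -0.10), with 0 past the threshold in each. At an unadjusted p under 0.05 these lists held 0 higher genes, and 2 lower for Kupffer cells, 1 for dendritic cells and 1 for neutrophils. Of the cholangiocyte and ductular markers 15 of 16 were negative (median -0.46, and -0.30 without NASH replicate 5, 0 past the threshold, 7 lower at an unadjusted p under 0.05). Without NASH replicate 3 their median was -0.59 and 2 passed as lower. Krt18, a keratin also present in hepatocytes, ran from 137 to 234 CPM in NASH-AA with a median of 174, and from 183 to 474 CPM in NASH with a median of 343 (-0.75 ± 0.17, adjusted p = 0.0673), and it passed in limma-trend. Krt8, its partner, gave -0.62 ± 0.16, and Cdh1, E-cadherin, gave -1.46 ± 0.43 (adjusted p = 0.111 and 0.152). Hepatocyte markers were positive in 16 of 20 (median 0.26, 0 past the threshold, 7 higher and 0 lower at an unadjusted p under 0.05), with Alb at 0.30 ± 0.11 (adjusted p = 0.252). In whole liver, fewer cells of a type and less RNA per cell cannot be told apart, and the part of cell makeup in the gene results was not tested.

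These cell-type values were not alike in the libraries of low and high number. The monocyte and macrophage median was -0.01 within libraries 1 to 16 and -0.58 within libraries 17 to 32. For lipid-associated macrophages the medians were -0.02 and -1.10, for cell division genes -0.05 and -0.94, and for stellate activation and matrix genes 0.29 and -0.77. The labels do not say what the library number stands for. Every FAAH S268D library that correlated best with the other diet, NASH replicate 4 only slightly so, lies in libraries 1 to 16. The shallow NASH replicate 1 lies there too. Whether these libraries bear on the difference between the ranges was not tested. Cell division genes as a whole were negative in 23 of 24 (median -0.38, 0 past the threshold, 1 lower at an unadjusted p under 0.05), and stellate activation and matrix genes in 27 of 32 (median -0.21, 0 past the threshold, 1 higher and 1 lower at an unadjusted p under 0.05), with Fn1, fibronectin, at 0.35 ± 0.11 (adjusted p = 0.159). At that unadjusted level neither list exceeded the shares over all genes, 6.28% higher and 6.09% lower. The stellate and matrix median was -0.06, -0.09 and -0.11 without NASH replicate 5, NASH-AA replicate 5 and NASH replicate 6, and -0.37, -0.36 and -0.35 without NASH replicate 2, NASH-AA replicate 3 and NASH replicate 4. Of 26 genes of cytokines, chemokines and adhesion 22 were negative (median -0.22, 0 past the threshold, 1 higher and 2 lower at an unadjusted p under 0.05). That median ran from -0.34 without NASH replicate 4 to -0.10 without NASH replicate 5, with -0.33 without NASH replicate 2 and -0.13 without NASH-AA replicate 5. The chemokine gene Ccl9 ran from 12 to 18.3 CPM in NASH-AA with a median of 14.3, and from 14.8 to 32.5 CPM in NASH with a median of 22.2 (-0.65 ± 0.16, adjusted p = 0.0798), and it passed in limma-trend. Cxcl1, a neutrophil attractant, gave 0.80 ± 0.26 in the other direction (adjusted p = 0.201).

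**Figure D5:**
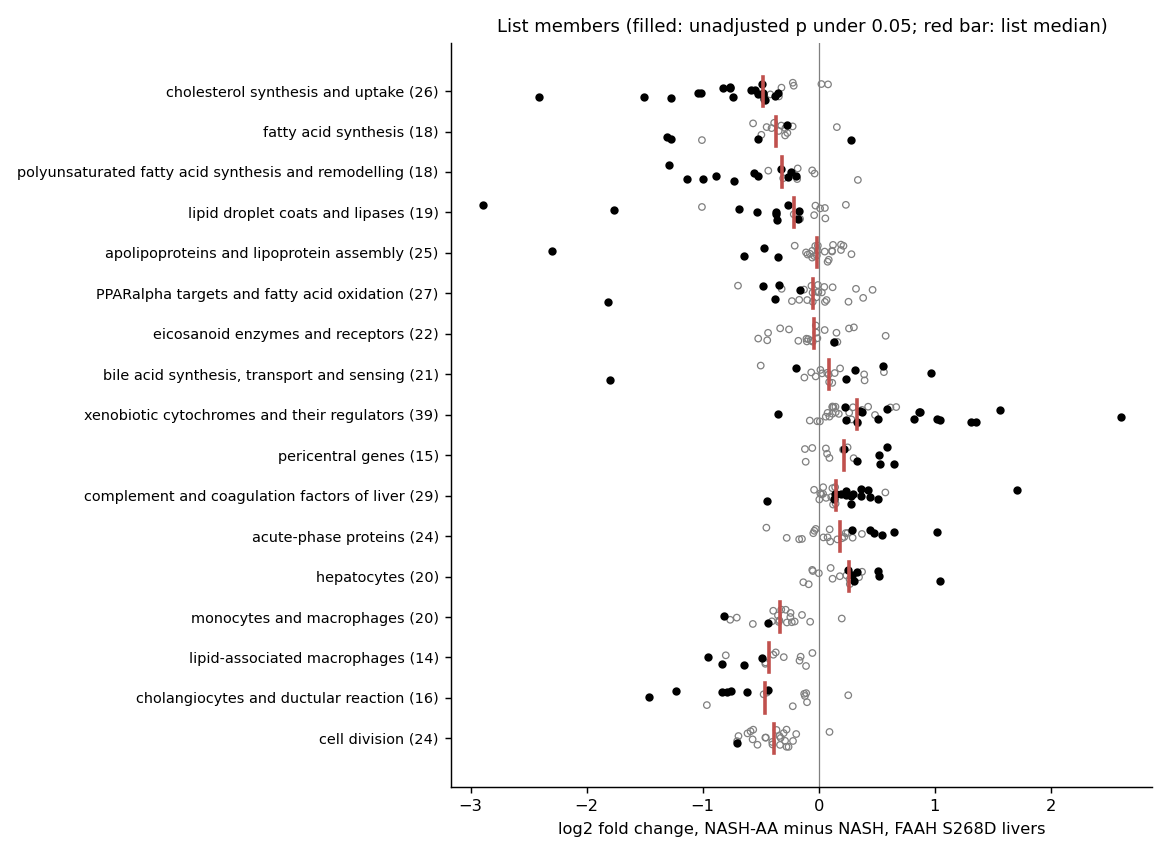
Log2 fold change, NASH-AA minus NASH in FAAH S268D livers, of every tested member of 17 lists, with the number of members in brackets; filled points have an unadjusted p under 0.05 and red bars are list medians. The cholesterol list has its median at -0.48 and the xenobiotic cytochromes at 0.33, beside 0.0045 over all genes.

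Without NASH replicate 3, the 362 genes that passed included the following with the largest changes at a mean of at least 1 CPM, predicted genes left out. Beside those named above, the 12 lower ones held Ephb2, a receptor tyrosine kinase, Tubb2a, a beta-tubulin, Dntt, a template-independent DNA polymerase, Cyp17a1, the steroid 17-hydroxylase, Cgref1, H2-Q1, an MHC class I gene, and Sema3b, a semaphorin. Tubb2a ran from 16.4 to 143 CPM in NASH-AA with a median of 25.9, and from 56.8 to 708 CPM in the NASH libraries other than replicate 3, which was at 18.7 (-2.67 and adjusted p = 0.00204 without it, -2.23 ± 0.52 and adjusted p = 0.0679 with it). It shares 56.4% of its 31-base words with other genes, mostly Tubb2b. Cyp17a1 ran from 1.94 to 10 CPM in NASH-AA, and from 11.1 to 40.3 CPM in the NASH libraries other than replicate 3, which was at 1.69 (-2.07 and adjusted p = 0.00388 without it, -1.62 ± 0.52 and adjusted p = 0.191 with it). The 12 higher ones held Nnmt, the nicotinamide methyltransferase, Cyp26a1, which breaks down retinoic acid, Rdh16f2, of the retinol dehydrogenase family, Serpinb1a, a neutrophil protease inhibitor, Enho, the gene of adropin, Sptb, a spectrin, Gna14, a G protein subunit, Chic1 and Pcp4l1. Rdh16f2 ran from 36.3 to 76.3 CPM in NASH-AA, and from 9.91 to 30 CPM in the NASH libraries other than replicate 3, which was at 60.6 (1.37 and adjusted p = 0.00359 without it, 1.16 ± 0.27 and adjusted p = 0.0679 with it). For Enho, replicate 3 lay at 15.6 CPM, with 1.37 to 3.40 CPM in NASH-AA and 0.491 to 1.15 CPM in the other NASH libraries. Of all genes, 79 (0.53%) did not overlap between the diets once replicate 3 was left out, 32 higher (0.215%) and 47 lower (0.315%). Leaving out NASH-AA replicate 3 as well gave 543 genes, 242 higher and 301 lower, 348 of them among the 362. NASH-AA replicate 3 was the NASH-AA library that correlated best with NASH and was picked after the values were seen. The count of 543 is therefore selected on the result too. The overlap comes from largely the same libraries and is no independent check.

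Whether mutant livers responded differently from WT livers was tested by the interaction of diet and genotype. In limma-voom 0 of 14903 genes passed (0%), with a smallest adjusted p of 0.906 and 627 genes (4.21%) at an unadjusted p under 0.05. Limma-trend also gave 0 for the interaction. Without NASH replicate 3 the numbers were 0 (0%) and 726 (4.87%). The diet effect in WT, from other libraries of the same fit, passed in 657 genes (4.41%), 215 higher (1.44%) and 442 lower (2.97%), but a larger count in one genotype is no test of a difference. For the cholesterol list the median was -0.48 in FAAH S268D and -0.04 in WT, and 6 of 26 members had an unadjusted interaction p under 0.05. Mvk gave -0.48 in FAAH S268D and 0.04 in WT (interaction -0.52 ± 0.14, unadjusted p = 0.000834, adjusted p = 0.906). Fatty acid synthesis medians were -0.37 in FAAH S268D and 0.19 in WT, with 3 of 18 members under that level. For polyunsaturated fatty acid genes the medians were -0.32 in FAAH S268D and -0.39 in WT, with 1 of 18. For the cytochromes they were 0.33 in FAAH S268D and 0.32 in WT, with 7 of 39, among them Cyp3a11.

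The 5 genes with the smallest interaction p were Gm15191, Gm21451, Cds1, Mirt2 and Cyp3a11, none of which passed (adjusted p = 0.906 each). Cyp3a11, a main drug-oxidising cytochrome of mouse liver, gave 0.37 ± 0.20 in FAAH S268D and -0.72 in WT (interaction 1.09 ± 0.28, unadjusted p = 0.00057). Cds1, which makes CDP-diacylglycerol for phosphatidylinositol, gave 0.18 ± 0.20 in FAAH S268D and -0.89 in WT (interaction 1.07 ± 0.27, unadjusted p = 0.000389). Gm15191 and Gm21451 are annotated as pseudogenes that share 72.5% and 98.9% of their 31-base words with other genes.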

How the data were processed

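Poly(A) RNA libraries of whole liver were made with a Tecan Universal Plus kit after TRIzol extraction, per the labels' protocols. Per the submitters' processing notes, reads were handled with UMI-tools 1.1.2, Trim Galore 0.6.7 and, on GRCm38, STAR 2.7.10. Which program and annotation gave the counts, and whether strand was used, is not given in the sources used here. The authors deposited 1 merged table of estimated counts per gene, 55487 genes by 32 libraries. In it a spreadsheet had altered 56900 cells into clock times, fractions of a day or numbers with misplaced marks. These were restored to counts and rounded. In 4972 cells (0.28%) more than 1 reading was possible, differing by at most 1.21 counts. Because of these cells the deposited values were treated as another unit than plain counts, and limma 3.58.1 in R 4.3.3 was used in place of a negative binomial count test.

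Genes were kept with at least 0.437 CPM in 8 libraries and a total of 15 counts (14903 genes). TMM factors (trims of 30% and 5%) and limma-voom (prior 0.5) were fitted over 4 group means and 32 libraries, and NASH-AA was compared with NASH within FAAH S268D, within WT, and by their interaction. P-values were adjusted over all genes by Benjamini-Hochberg, two-sided, at 0.05. The number of libraries limits precision, and depth is given beside the results. The fit was tested on simulated data in which no library was made to stand apart. Of 98 genes changed 2-fold it recovered 88, and of 99 changed 4-fold it recovered 97. False calls were 15 of 200, and 7 unchanged genes passed in the interaction. The simulation does not show how the fit behaves where libraries stand apart, as they do here.

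Members and the 49 gene lists were chosen with earlier results of these data known. Named genes are Faah, all genes past the threshold, up to 4 members of a list by smallest p, 12 higher and 12 lower by fold without NASH replicate 3, and the 5 smallest interaction p. Positions and overlaps are from GENCODE vM21 on GRCm38 (99.38% of IDs matched). The share of 31-base words in other genes is given beside the results for some genes only. It was also 20% or more for Apoa4 (64.5%), Golt1a (39.7%), Krt8 (36%), Serpina3m (35%) and Mirt2 (26.4%). The same held for Rdh16f2 (24.9%), Daglb (24.5%), H2-Q1 (24.1%), Hadhb (23.7%) and Cd9 (20.1%). Reads of these genes could have been divided among copies. Alternatives were another normalization, filter, weighting, model, block and set of libraries. Some list members count in the totals but are not reported here.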

Additional observations from a re-analysis of the deposited data

Results flagged for a closer look

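A library was singled out where its gap to the nearest of the 8 libraries of its group was over Dixon's 95% critical share of the whole range of the group. Of 328 groups of values tested in this way 44 (13.4%) were singled out, and chance flags about 1 in 20 groups (5%). The groups are not independent, since many genes share the same library. Some of the genes were chosen for their large change without NASH replicate 3, so that library was likely to stand apart in them. The 5% also assumes normal values, and genes were tested on CPM without a log. The share of 13.4% is therefore not a fair comparison with 5%. The reasons were not tested.

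The values below are in CPM. NASH-AA replicate 3 was the highest of its group for Cidea (16 against 0.179 to 4.76), Ephb2 (3.07 against 0.403 to 1.37), Tubb2a (143 against 16.4 to 57.9), Cyp17a1 (10 against 1.94 to 5.08) and H2-Q1 (19.9 against 2.91 to 7.86). It was also the highest for Fasn (1940 against 174 to 649), Hilpda (1.98 against 1.03 to 1.46), Gpam (417 against 162 to 248), Spp1 (74.9 against 34.1 to 50.3) and Cd9 (24 against 13.3 to 17). NASH-AA replicate 3 was the lowest of its group for Dgat2 (498 against 641 to 706) and Cyp7a1 (49.3 against 121 to 184). NASH replicate 3 was the highest of its group for Gm35696 (5.87 against 1.23 to 3.08), Rdh16f2 (60.6 against 9.91 to 30), Enho (15.6 against 0.491 to 1.15), Cyp26a1 (12.1 against 1.23 to 4.61) and Cyp1a2 (726 against 178 to 435). It was also the highest for Itih4 (2970 against 1290 to 1950), Saa4 (740 against 169 to 424), Cxcl1 (26.1 against 6.41 to 12.7) and Mx2 (6.52 against 2.07 to 3.87). NASH replicate 3 was the lowest of its group for As3mt (18.9 against 33.3 to 44.8), Dntt (0.376 against 1.89 to 2.77), Gm15191 (0.61 against 0.74 to 0.83) and Crat (33.1 against 83.5 to 125). NASH-AA replicate 2 was the lowest of its group for Apoa5 (568 against 882 to 1010). NASH-AA replicate 4 was the highest of its group for Gm21451 (1.53 against 0.106 to 0.644). NASH-AA replicate 4 was the lowest of its group for Plin2 (371 against 486 to 584). NASH-AA replicate 5 was the highest of its group for Serpina12 (85.4 against 28.7 to 52). NASH-AA replicate 8 was the highest of its group for Golt1a (9.88 against 7.27 to 8.49). NASH replicate 1 was the highest of its group for Slc51b (1.38 against 0.0469 to 0.669) and Serpina12 (140 against 49.6 to 79.9). NASH replicate 1 was the lowest of its group for Slc6a6 (53.6 against 99.8 to 122). NASH replicate 5 was the highest of its group for Sqle (6.18 against 0.235 to 2.89), Spp1 (277 against 28.9 to 145), Cdh1 (50.8 against 5.43 to 26) and Tspan8 (6.34 against 0.506 to 2.37). NASH replicate 8 was the highest of its group for Tubb2a (708 against 18.7 to 302) and Csad (141 against 65.5 to 99.9).

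The list score of FAAH, N-acyl amides and endocannabinoids was lowest in NASH-AA replicate 5, at -0.27 against -0.06 to 0.10 in the others of its group. The list score of lipid droplet coats and lipases was lowest in NASH replicate 3, at -0.96 against 0.11 to 0.46 in the others of its group. The list score of iron regulation was lowest in NASH-AA replicate 2, at -0.72 against -0.23 to 0.05 in the others of its group. The list score of B and plasma cells was highest in NASH replicate 2, at 1.23 against -0.53 to -0.03 in the others of its group. NASH replicate 1 held 3851626 counts against 21349502 to 26662783 in the other NASH libraries.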

How the results depend on the processing

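The count of 14 genes (4 higher, 10 lower) was 14 with median-of-ratios factors, 14 with the other reading of altered cells, 14 without the genes holding such cells, 16 with a block for library number range and 10 at 5 CPM (1 higher). It was 25 with total counts alone (9 higher, 16 lower), 6 without a filter (2 higher, 4 lower), 42 in limma-trend (9 higher, 33 lower), 4 with FAAH S268D libraries alone (0 higher, 4 lower), 1062 with sample quality weights (454 higher, 608 lower), 5 with one weight per group (1 higher, 4 lower) and 4 without the libraries numbered replicate 1 (1 higher, 3 lower). It was 0 within libraries 1 to 16 (0 higher, 0 lower), 372 within 17 to 32 (123 higher, 249 lower), and 1 for a fold change above 1.2 (0 higher, 1 lower). With 1 library left out it ran from 6 to 362 (higher 1 to 148, lower 4 to 214). The causes were not tested.

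Without NASH replicate 3 the count of 362, an alternative looked into after seeing the data, was 223 in the 15 other FAAH S268D libraries (83 higher, 140 lower), 164 with one weight per group (45 higher, 119 lower) and 543 without NASH-AA replicate 3 (242 higher). With a further library left out it ran from 119 to 816 (higher 28 to 330, lower 91 to 486). The interaction gave 0 genes in every setting run.

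Faah, at -0.04, ran from -0.063 to 0.0015 with 1 library left out, its sign turning without NASH replicate 4, and was -0.070 without the libraries numbered replicate 1. Within libraries 17 to 32 alone, Cds1 gave -0.023 and Cyp3a11 -0.16, the reverse of the value over all libraries. Of the other values of named genes under alternatives, 5205 kept direction and side of the threshold, 214 came to pass and 146 no longer passed.

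Replicate numbers are shared by the groups. Same-numbered NASH-AA and NASH libraries deviated with r from -0.383 to 0.171, over 0.1 in 2 of 8. The labels do not say whether equal numbers pair the samples, and these correlations cannot decide it. The main fit treated the libraries as unpaired. With the replicate block the count was 8 (2 higher, 6 lower), and in 1 of 8 the best correlation was with its own number. NASH replicate 1, at 3851626 counts, limits what can be seen of low genes in that library.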

Other observations

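Clock genes were positive in 12 of 19 (median 0.19), with 0 past the threshold in limma-voom and 0 in limma-trend, and 6 higher and 1 lower at an unadjusted p under 0.05. Hlf, a clock output factor, ran from 54.4 to 79.7 CPM in NASH-AA and from 35.9 to 61.8 CPM in NASH (0.41 ± 0.10, adjusted p = 0.0805). Cry1, a clock repressor, gave 0.58 ± 0.17 (adjusted p = 0.152). Interferon response genes were positive in 21 of 26 (median 0.10), with 0 past the threshold by either method and 3 higher at an unadjusted p under 0.05. That median ran from 0.0051 without NASH replicate 2 to 0.18 without NASH replicate 6. Tff3, a trefoil peptide, ran from 0.147 to 0.37 CPM in NASH-AA and from 0.385 to 2.25 CPM in NASH. The diets did not overlap for Tff3 (-1.68 ± 0.37, adjusted p = 0.0619), and it passed in limma-trend. Id1 and Id3, inhibitors of helix-loop-helix factors, gave -0.98 ± 0.30 and -0.71 ± 0.17 (adjusted p = 0.171 and 0.0805), and Id3 passed in limma-trend. Medians close to 0 took either sign with 1 library left out, from -0.038 to 0.056 for LXR targets, from -0.047 to 0.031 for apolipoproteins, from -0.11 to 0.0016 for PPARalpha targets, from -0.025 to 0.042 for N-acyl amide genes, from -0.099 to 0.10 for Kupffer cells and from -0.097 to 0.16 for B and plasma cells.

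The following was chosen after its values were seen, and its reason was not tested. As3mt and Cyp17a1 (chromosome 19, 46667165 to 46673172, minus strand) lie close to each other, and both were low in NASH replicate 3 and in the NASH-AA libraries, with Cyp17a1 at -1.62 ± 0.52. Genes around them, Borcs7, Cnnm2 and Wbp1l, gave -0.19 ± 0.11, -0.03 ± 0.09 and 0.00 ± 0.07 (adjusted p = 0.514, 0.908 and 0.994). In the Cyp2c cluster, Cyp2c54 gave 1.31 ± 0.48 while Cyp2c38 and Cyp2c39 gave 0.13 ± 0.23 and 0.09 ± 0.26 (adjusted p = 0.255, 0.848 and 0.915).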
